A study of Homo sapiens with 4 samples.

Results

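Enzymes that make or use glutamine, glutamate and asparagine were followed through RNA sequencing of NUDUL1 cells, a human diffuse large B cell lymphoma line of the germinal center B cell type. The set was fixed by gene symbol and held 7 genes, namely GLUL, GLUD1, GOT1, GOT2, GPT2, ASNS and GFPT1, and each was found as 1 row among the 25066 genes of the table. The study's NUDUL1 cells descended from a single-cell clone with doxycycline-inducible Cas9 and had been transduced with the Gα13-coupled thromboxane receptor Tbxa2r. They carried either a control sgRNA or an sgRNA against GNA13, which encodes Gα13, with 2 libraries per genotype. All 4 libraries came from cells grown with glutamine and given U46619, a stable thromboxane analog that activates Tbxa2r, at 10 nM for 24 h, so no untreated cells entered the comparison. The labels call the treatments duplicates and do not say whether they were separate cultures, so the p values measure the spread between these libraries, which may be technical.

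Glutamine carries nitrogen and carbon into proliferating cells. Glutaminase converts it to glutamate, and glutamate then passes its carbon to the tricarboxylic acid cycle as α-ketoglutarate, either through glutamate dehydrogenase, which releases ammonia, or through transaminases, which hand the amino group to another keto acid and so make alanine or aspartate. Glutamine synthetase runs the opposite way, asparagine synthetase takes the amide group of glutamine to make asparagine from aspartate, and the hexosamine pathway takes the same group to make UDP-GlcNAc for glycosylation. Proliferating germinal center B cells and lymphomas derived from them draw on these routes for growth.

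In the libraries labelled GNA13-deficient, GPT2, GOT2, GOT1 and GLUL exceeded their control level by 1.61-fold, 1.38-fold, 1.36-fold and 1.21-fold. GLUD1, ASNS and GFPT1 did not pass the test. The transaminases and glutamine synthetase thus made up all 4 calls, and none of the 7 enzymes was called lower. Calls were adjusted p values under 0.05 from limma, adjusted by the Benjamini-Hochberg method over all 16945 genes tested. By the same rule 29.7% of all genes tested were called, 13.1% higher and 16.6% lower, so that 44.03% of calls were higher, a share that median centring of the libraries raised to 69.14%. Among the 8473 genes whose mean level was at or above the median, a range that includes all 7 enzymes, 39.0% were called and 21.3% were called higher. The median log2 difference of the 7 enzymes was 0.27, against -0.02 over all genes tested. For 6 of the 7 the genotypes did not overlap, which was also so for 65.3% of all genes, and for the 4 called enzymes every library with the GNA13-deficient label lay above every control library, as for 31.3% of all genes. Without the filter on low values, or without a variance trend, GPT2 alone of the 7 passed, and with any 1 library left out no gene of the table did.

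**Figure D1:**
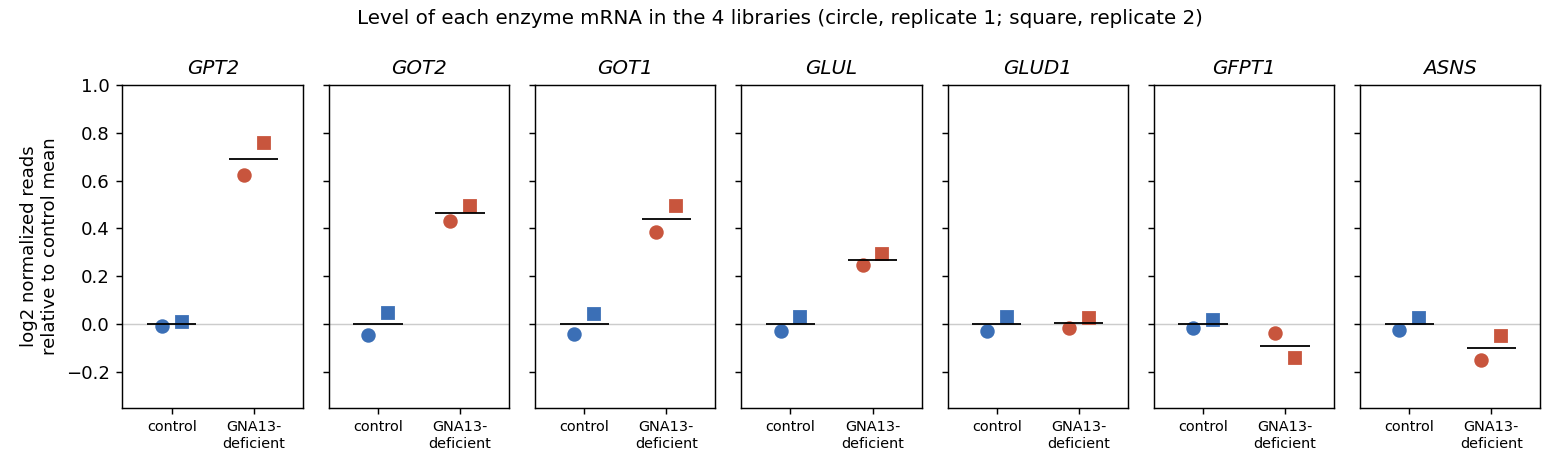
Level of each of the 7 enzyme mRNAs in the 4 libraries, as log2 normalized reads relative to the mean of the control libraries. Circles and squares are replicates 1 and 2 and bars are genotype means. GPT2, GOT2, GOT1 and GLUL lie above both control libraries in both libraries labelled GNA13-deficient, GLUD1 overlaps, and GFPT1 and ASNS lie between 0.04 and 0.15 below the control mean.

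Each library held between 29209544 and 31537955 mapped reads. A value for 1 of the 7 enzymes rested on 1575 to 12888 reads, so that counting error alone was at most 0.04 on the log2 scale, while replicates differed by 0.015 to 0.133. GNA13 itself measured 12.46 and 12.45 on the log2 scale under the control label against 13.10 and 13.11 under the GNA13-deficient label. The targeted mRNA was thus higher, by 0.65 (adjusted p = 0.00214 by limma), under the label that names its loss. Cas9 edits can remove a protein without lowering its mRNA, so this level does not check the labels, on which every direction given here rests. Among B cell markers MS4A1 fell by 0.57 (adjusted p = 0.00477 by limma), and CD79A, CD79B, PAX5 and CD22 did not pass. Among germinal center markers BCL6 fell by 2.49 on the log2 scale (adjusted p = 0.00085), and MME differed by -0.02 without passing. Of 4 T cell markers 3 were listed at 0 in every library, and the fourth had 1 read in 1 library. The 4 myeloid markers summed to 224 and 246 reads under the control label and to 27 and 25 under the GNA13-deficient label. Of these CD14 had only 1 and 2 reads under the control label and 0 under the other, and did not pass (adjusted p = 0.462 by limma). The lower sum thus rests on the other myeloid markers. The part of these marker differences in the enzyme values was not tested. In bulk RNA of this clonal line, fewer cells expressing a marker and less of its RNA per cell cannot be told apart.

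GPT2 showed the largest difference of the set. It encodes the mitochondrial alanine transaminase, which converts glutamate and pyruvate to α-ketoglutarate and alanine, and spans 46918274 to 46965201 on the plus strand of chromosome 16 (GRCh37, the assembly also named hg19, to which the reads were aligned), with 12 exons in its canonical transcript. Its log2 values were 10.65 and 10.66 under the control label against 11.28 and 11.41 under the GNA13-deficient label. The nearest libraries of the genotypes were 0.62 apart, against at most 0.13 between replicates. The log2 difference was 0.69 (standard error, SE, 0.07, adjusted p = 0.00316), a fold of 1.61 with a 95% interval of 1.43 to 1.81. It stayed between 0.67 and 0.90 under the 10 other ways of processing that kept all libraries, and was past the threshold in each.

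The cytosolic paralog GPT, which had few reads, was lower. GPT had 28 and 25 reads under the control label against 9 and 8 under the GNA13-deficient label, and fell by 1.57 on the log2 scale (SE 0.33, adjusted p = 0.0253). After quantile normalization it differed by -1.13 and no longer passed (adjusted p = 0.0538), and it did not pass without the filter either (adjusted p = 0.114). Of the reads of both paralogs together, GPT made up at most 1.75% under the control label and at most 0.371% under the GNA13-deficient label, so that GPT2 held nearly all alanine transaminase reads in every library.

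The aspartate transaminases GOT1 and GOT2 were higher by 1.36-fold and 1.38-fold. GOT1 is the cytosolic and GOT2 the mitochondrial form, and together they interconvert glutamate and aspartate on either side of the mitochondrial inner membrane and carry reducing equivalents in the malate-aspartate shuttle. GOT1 has 9 exons between 101156627 and 101190381 of chromosome 10, and GOT2 has 10 exons between 58741035 and 58768246 of chromosome 16 (GRCh37, both on the minus strand). GOT1 had log2 values of 10.66 and 10.74 under the control label against 11.09 and 11.20 under the GNA13-deficient label, and its difference was 0.44 (SE 0.07, adjusted p = 0.0100), a fold of 1.36 with a 95% interval of 1.20 to 1.53. GOT2 had 13.21 and 13.30 against 13.69 and 13.75, and a difference of 0.46 (SE 0.06, adjusted p = 0.00811), a fold of 1.38 with an interval of 1.23 to 1.55. For both genes the gap between genotypes, 0.34 and 0.39, was over the largest difference between replicates, 0.11 and 0.09. The call was lost for both without the filter on low values (adjusted p = 0.0712 and 0.0569) and without a variance trend (adjusted p = 0.0654 and 0.0547).

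GLUL encodes glutamine synthetase, which joins ammonia to glutamate, and was the smallest of the 4 rises. Its 7 exons run from 182347233 to 182361341 of chromosome 1 (GRCh37, minus strand). The log2 values were 12.65 and 12.71 under the control label against 12.93 and 12.98 under the GNA13-deficient label, with no overlap. The difference was 0.27 (SE 0.06, adjusted p = 0.0244), or 1.21-fold with a 95% interval of 1.09 to 1.33. Quantile normalization lowered it to 0.15, where it no longer passed (adjusted p = 0.0832), and it was also lost without the filter (adjusted p = 0.0716) and without a variance trend (adjusted p = 0.115).

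GLUD1 encodes mitochondrial glutamate dehydrogenase and had a level that overlapped between genotypes. Its 13 exons run from 88809959 to 88854600 of chromosome 10 (GRCh37, minus strand). Its log2 values were 13.17 and 13.23 under the control label against 13.18 and 13.23 under the GNA13-deficient label. The difference was 0.01 (SE 0.06, adjusted p = 0.959), with a 95% interval of -0.14 to 0.15, which leaves room for a change of up to 1.11-fold. After quantile normalization the value was -0.15 and after median centring 0.21, and neither passed (adjusted p = 0.0768 and 0.0784). The near-identical retrocopy GLUD2, to which reads of GLUD1 can be assigned, held 229 to 368 reads and 2.51% to 3.91% of the reads of both.

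ASNS, which encodes asparagine synthetase and is a widely used reporter of the amino acid response, did not pass the test. Its 13 exons run from 97480989 to 97501854 of chromosome 7 (GRCh37, minus strand). Its log2 values were 11.31 and 11.36 under the control label against 11.19 and 11.29 under the GNA13-deficient label. The difference was -0.10 (SE 0.06, adjusted p = 0.294) and its 95% interval, -0.26 to 0.06, covers folds from 0.838 to 1.04. GFPT1 encodes the amidotransferase that opens the hexosamine pathway and has 20 exons between 69546912 and 69614382 of chromosome 2 (GRCh37, minus strand). Its log2 values were 11.23 and 11.27 against 11.21 and 11.11, a difference of -0.09 (SE 0.06, adjusted p = 0.329 from limma, interval -0.25 to 0.07). For both genes the genotypes came within 0.02 of each other, under the replicate differences of up to 0.10, and the sign turned under median centring, to 0.11 and 0.12, still below the median of all genes there, 0.18. The paralog GFPT2 was listed at 0 in every library.

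**Figure D2:**
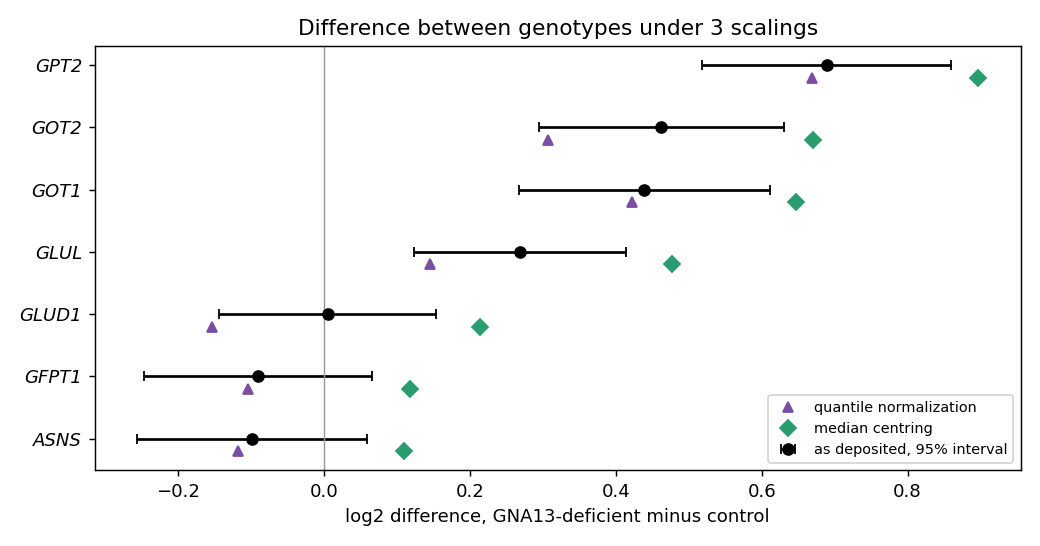
Log2 difference between genotypes, GNA13-deficient minus control, for each enzyme. Black points are the values as deposited with 95% intervals from limma, triangles are after quantile normalization and diamonds after median centring of each library. GPT2, GOT2, GOT1 and GLUL lie above 0 under all 3 scalings, whereas GLUD1, GFPT1 and ASNS lie on both sides of 0.

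Sequences upstream of the genes are shown for the aspartate transaminases, which rose together, and for ASNS, which did not pass and whose promoter is the classical target of ATF4, the transcription factor of the amino acid response. The windows are the 250 bases before the start of the gene, read 5′ to 3′ on the gene's strand, from RefSeq on GRCh38.p14, where windows were found for 6 of the 7 genes, all but GPT2. Both strands were searched for the core of the C/EBP-ATF response element, TGATGNAA, and for the E-box CACGTG, which MYC binds, whose letters can overlap, though no window shown held both. Capitals mark matches, and positions count from -1 at the last base before the start. The windows are chr10:99430625-99430874 for GOT1, chr16:58734317-58734566 for GOT2 and chr7:97872409-97872658, the more upstream of the listed starts, for ASNS, all on the minus strand.
GOT1: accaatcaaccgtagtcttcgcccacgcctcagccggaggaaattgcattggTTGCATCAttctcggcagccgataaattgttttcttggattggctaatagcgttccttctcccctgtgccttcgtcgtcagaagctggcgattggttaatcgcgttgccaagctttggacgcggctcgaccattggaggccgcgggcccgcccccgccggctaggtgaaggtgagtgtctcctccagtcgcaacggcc
GOT2: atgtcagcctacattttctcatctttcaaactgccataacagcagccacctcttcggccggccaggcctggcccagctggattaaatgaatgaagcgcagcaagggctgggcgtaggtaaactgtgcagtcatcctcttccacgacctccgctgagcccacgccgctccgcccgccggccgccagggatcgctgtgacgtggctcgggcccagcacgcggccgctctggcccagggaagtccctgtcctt
ASNS: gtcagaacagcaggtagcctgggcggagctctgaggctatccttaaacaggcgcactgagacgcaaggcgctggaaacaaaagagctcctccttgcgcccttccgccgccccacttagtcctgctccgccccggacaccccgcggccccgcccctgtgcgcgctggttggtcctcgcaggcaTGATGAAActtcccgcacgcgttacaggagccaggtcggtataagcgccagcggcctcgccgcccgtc
The ASNS window held TGATGAAA from -68 to -61, and the GOT1 window held the core on the opposite strand, read as TTGCATCA, from -198 to -191. GOT2, GLUL, GLUD1 and GFPT1 had no match to it, and none of the 6 genes had the E-box. Of 35116 windows of this length, 3.14% held the first motif and 6.34% the second. A match is a description of letters only. The genes with the first motif were 1 that was higher, GOT1, and 1 that did not pass, ASNS.

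ATF4 and MYC, regulators of these enzymes in other settings, were measured in the same libraries. ATF4 had log2 values of 13.05 and 12.89 under the control label against 13.18 and 13.24 under the GNA13-deficient label. The difference was 0.24 (SE 0.07, adjusted p = 0.0709 by limma) and did not pass as deposited. It passed under 4 alternatives, among them median centring (0.45, adjusted p = 0.0130) and the replicate block (adjusted p = 0.0349). Quantile normalization lowered it to 0.095, where it did not pass (adjusted p = 0.402). Nor did it pass without the filter (adjusted p = 0.228) or without a variance trend (adjusted p = 0.199). MYC had 13.79 and 13.77 against 13.22 and 13.23, and fell by 0.55 (SE 0.06, adjusted p = 0.00358). ATF4 is regulated largely at translation and the mRNA values do not measure its protein, and the same holds for MYC here.

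Levels of the 7 enzymes were compared with each other per kilobase of canonical transcript, as log2 normalized reads per kb. GOT2 was highest, from 11.94 to 12.48 over the 4 libraries, followed by GLUD1 from 11.45 to 11.51, and neither range met its neighbours. GPT2, from 8.65 to 9.41, and GFPT1, from 7.99 to 8.15, were the lowest and also stood apart. The order of the other 3 differed between genotypes. In the libraries labelled control ASNS, at a mean of 10.08, was above GLUL at 9.77 and GOT1 at 9.72, and the last 2 overlapped. In the libraries labelled GNA13-deficient GOT1 was above both, at a mean of 10.16, and GLUL at 10.04 and ASNS at 9.98 overlapped. Pseudogenes are annotated for GOT2 (6), GLUD1 (6), ASNS (5) and GLUL (4) but had no rows in the table, so reads shared with them make these levels uncertain. The transcript form in these cells can be shorter than the canonical one, above all for GLUL and GFPT1 with 7554 and 8665 bases, which would raise their level per kb.

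Differences between enzymes within a library do not depend on the scaling factor of that library. GOT1 less GOT2 was -2.55 and -2.56 on the log2 scale under the control label against -2.60 and -2.56 under the GNA13-deficient label, so that the balance of reads between the cytosolic and mitochondrial forms overlapped between genotypes (difference -0.02, exact permutation p = 0.667, two-sided). GLUL less GLUD1 moved from -0.51 and -0.52 to -0.26 and -0.25, a difference of 0.26 against at most 0.01 between replicates. The reads of glutamate dehydrogenase were 1.43 times those of glutamine synthetase under the control label and 1.19 times under the GNA13-deficient label, without correction for length. ASNS less GLUL moved from -1.34 and -1.35 to -1.74 and -1.69, a difference of -0.37 against at most 0.05 between replicates. For these last 2 pairs the genotypes did not overlap and the exact permutation p was 0.333, two-sided, which is the smallest that 4 libraries can give, so the design cannot reach 0.05 here. Over the 3 pairs the Benjamini-Hochberg adjusted p was 0.5, 0.5 and 0.667 from the smallest up.

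**Figure D3:**
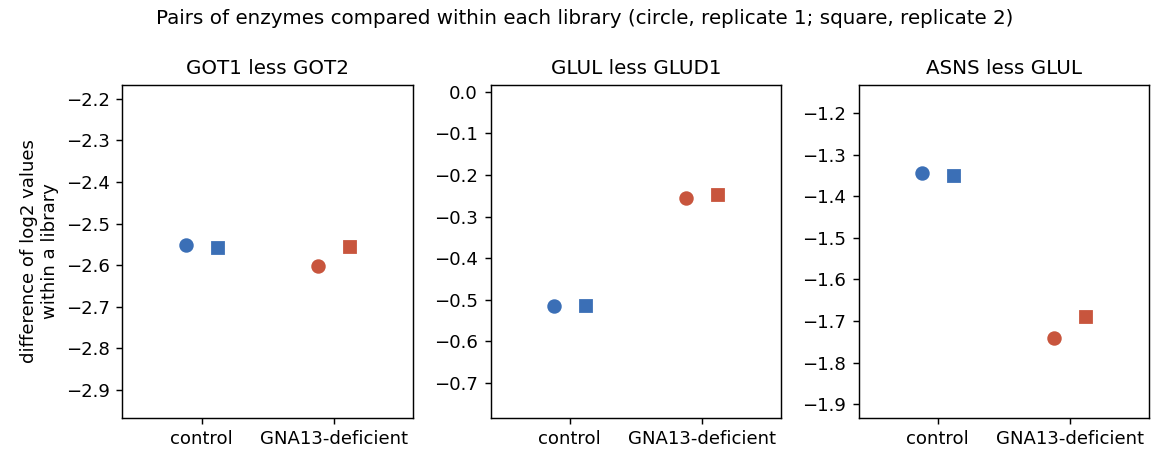
Difference of log2 values between the enzymes of a pair within each library, with circles for replicate 1 and squares for replicate 2. GOT1 less GOT2 lies between -2.60 and -2.55 in all 4 libraries, GLUL less GLUD1 is higher by 0.26 and ASNS less GLUL lower by 0.37 in the libraries labelled GNA13-deficient.

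Enzymes that border on these reactions were taken from lists of 52 genes, of which 49 were tested. Of these 10 were higher and 10 lower, 40.8% in all, beside 29.7% of all genes tested and 39.0% of genes at or above the median level. The lists were not limited to that level, and some of their genes lay below it. The median log2 difference of the 49 was 0.08. Adjusted p values below are from limma over all genes. The number called was 7 without the filter on low values and 9 without a variance trend. GLS2, a glutaminase, held only 26 to 51 reads and did not pass (adjusted p = 0.785). Glutamine amidotransferases had 3 higher and 1 lower of 7, with a median of 0.24. GMPS, which makes GMP, was higher by 0.63 (SE 0.05, adjusted p = 0.00257) and PFAS, of purine synthesis, by 0.38 (adjusted p = 0.0148), while NADSYN1, which makes NAD, fell by 0.55 (adjusted p = 0.00768). PPAT, the first enzyme of purine synthesis, was higher by 0.24 (adjusted p = 0.0265) but missed the threshold after quantile normalization (0.19, adjusted p = 0.0516).

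Glutamate transaminases outside the set fell where they were called, 3 of 5. Besides GPT these were BCAT1, which transfers the amino group of branched-chain amino acids and fell by 0.57 (SE 0.05, adjusted p = 0.00292), and OAT, the ornithine transaminase, which fell by 0.28 (adjusted p = 0.0280) but differed by only -0.07 after median centring (adjusted p = 0.5). PSAT1 and BCAT2 differed by 0.04 and 0.09 and did not pass. Of 5 partners of GOT1 and GOT2 in the malate-aspartate shuttle only the cytosolic malate dehydrogenase MDH1 was called, higher by 0.39 (adjusted p = 0.0370), and quantile normalization took it to 0.26 (adjusted p = 0.0615). Its mitochondrial counterpart MDH2 differed by -0.12 and did not pass (adjusted p = 0.290), with -0.29 after quantile normalization, where it passed (adjusted p = 0.0170), and 0.08 after median centring. The test of whether MDH1 and MDH2 differ was not made.

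The glutathione and proline branches gave 2 higher and 2 lower of 9. PYCR1, the mitochondrial enzyme that completes proline synthesis from glutamate, had 502 and 601 reads under the control label against 35 and 43 under the GNA13-deficient label, and fell by 3.75 on the log2 scale (SE 0.19, adjusted p = 0.00109). PYCRL fell by 0.43 (adjusted p = 0.0101), and no longer passed after median centring (-0.22, adjusted p = 0.0746). ALDH18A1, which starts the same route, differed by 0.08 and did not pass, with -0.065 after quantile normalization and 0.29 after median centring, where it passed (adjusted p = 0.0394). ALDH4A1, of proline breakdown, was higher by 1.36 (adjusted p = 0.00507). GCLM, the modifier subunit of the enzyme that begins glutathione synthesis, was higher by 0.51 (adjusted p = 0.0146), and its catalytic partner GCLC differed by 0.08 and did not pass, except after median centring (0.29, adjusted p = 0.0240).

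In the steps after GFPT1, 2 of 6 enzymes were higher and 1 lower. NAGK, which salvages N-acetylglucosamine, was higher by 0.54 (adjusted p = 0.00790) and UAP1, which makes UDP-GlcNAc, by 0.43 (adjusted p = 0.0229). MGEA5, the enzyme that removes O-GlcNAc from proteins, fell by 0.97 (SE 0.09, adjusted p = 0.00338). Of 7 tested genes that use or break down aspartate and asparagine, ASRGL1, an asparaginase, was called, with 98 and 78 reads under the control label against 192 and 210 under the GNA13-deficient label, higher by 1.27 (SE 0.20, adjusted p = 0.0108). The median of these 7 was 0.17, or 0.13 without ASS1, which had 0 to 4 reads per library. In the GABA shunt ALDH5A1 fell by 0.73 (adjusted p = 0.00223), and GAD1, which decarboxylates glutamate, had 24 and 29 reads under the control label against 1 and 0 under the GNA13-deficient label, too few for a fold. The median of that list was -0.73, or -0.26 without GAD1. Of 4 synthetases that charge tRNAs with these amino acids, EPRS was higher by 0.34 (adjusted p = 0.0173) and DARS fell by 0.43 (adjusted p = 0.0101). Under quantile normalization EPRS no longer passed (0.17, adjusted p = 0.101), and under median centring DARS no longer did (-0.22, adjusted p = 0.0853).

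**Figure D4:**
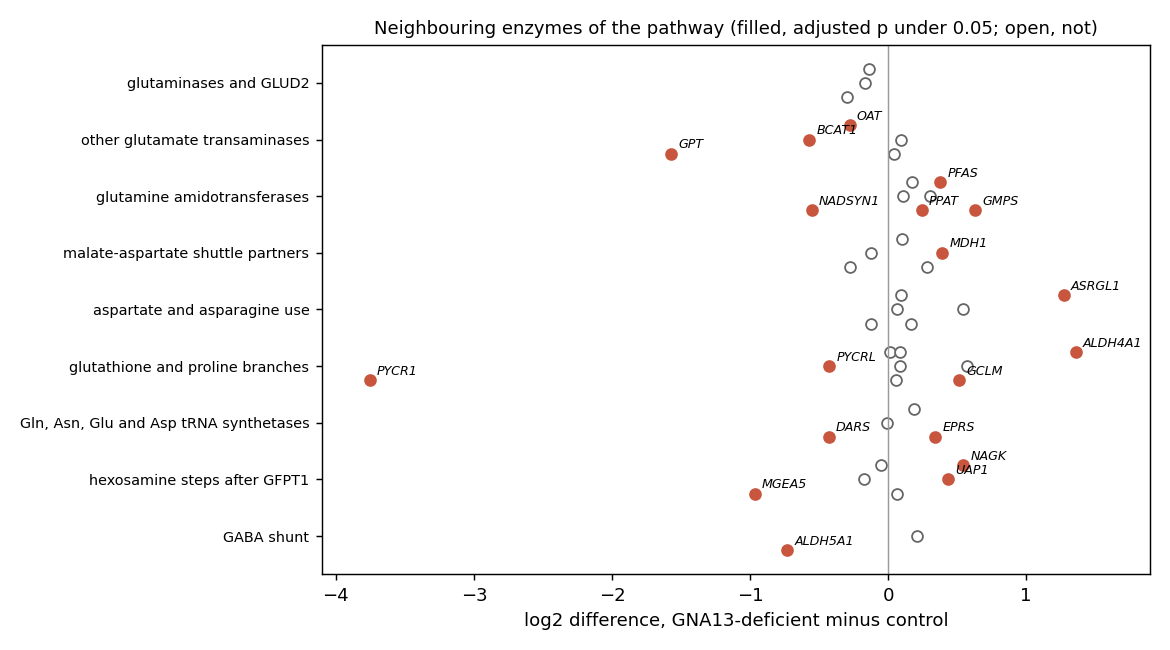
Log2 difference between genotypes, GNA13-deficient minus control, for the listed enzymes that border on the 7, by list, leaving out ASS1 and GAD1, which had 3 reads or fewer in each library of 1 genotype. Filled points passed an adjusted p of 0.05 in limma and are named. Points lie on both sides of 0, with PYCR1 lowest at -3.75 and ALDH4A1 highest at 1.36.

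The genes whose pattern over the 4 libraries was nearest to that of GPT2 were IER5, FAM136A and RICH2. Nearness was the Euclidean distance between log2 values, each centred on its own mean, among 8473 genes at or above the median level, and came to 0.0170, 0.0263 and 0.0317. For IER5 the values were 9.21 and 9.22 under the control label against 9.85 and 9.96 under the GNA13-deficient label. Their differences between genotypes were 0.69, 0.68 and 0.71, beside 0.69 for GPT2, and over 4 libraries nearness reflects little beyond that size.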

How the data were processed

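RNA was sequenced from NUDUL1 cells in 4 libraries, grouped by the sample titles into control and GNA13-deficient with 2 each. The authors made the libraries with a stranded mRNA kit and aligned the reads to hg19 with STAR. HTSeq is listed in the submitters' processing notes, and the annotation and the method of normalization are not given in the sources used here. The deposited values are log2 normalized reads per gene, with 0 as the lowest listed value and a row of total mapped reads on a linear scale. Low values are whole multiples of what a single read is worth in a library, and from these steps the reads behind each value were recovered. In 1 control library a single read falls below the lowest listed value, so that a 0 there can stand for 1 read, and no enzyme of the set is near that level.

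Genes above 0 in at least 2 libraries (16945 of 25066) were fitted with limma 3.58.1 in R 4.3.3, with genotype as the only term, a mean-variance trend and 2 residual degrees of freedom, on the log2 values without a pseudocount. Adjusted p values are by Benjamini-Hochberg over all genes tested, with a threshold of 0.05, and intervals are 95% intervals from the same fit. Pairs of enzymes were compared by exact permutation over the libraries. The fit was repeated without a filter, with a filter at the median level, with quantile normalization, median centring, pseudocounts of 1 and 10, the replicate number as a block, no variance trend, a robust prior or voom weights on the recovered reads, and with single libraries left out. Gene positions, exons and transcript lengths are from GENCODE v44lift37 on GRCh37, upstream sequences from RefSeq on GRCh38.p14, and no position was converted. The enzymes and lists were chosen with earlier results of these data known, so neither is an independent sample of genes. Named were all 7 enzymes, the 3 largest called differences in each list, GNA13, ATF4, MYC and the 3 genes nearest to the largest rise. Other listed genes were named after their values were seen. A few listed genes and markers are not reported here.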

Additional observations from a re-analysis of the deposited data

How the results depend on the processing

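GPT2, GOT1, GOT2 and GLUL stayed higher in the libraries labelled GNA13-deficient under every alternative run, including each library left out. Without the filter on low values 1999 genes, 7 listed neighbours and 1 of the 7 enzymes (GPT2) were called, and without a variance trend 2718, 9 and 1. GLUL (0.27), GOT1 (0.44) and GOT2 (0.46) kept their values in both and lost their calls, and GLUL lost its call at 0.15 after quantile normalization. Signs turned for GLUD1 after quantile normalization (-0.15) and for ASNS (0.11) and GFPT1 (0.12) after median centring, which moved the median of all genes from -0.02 to 0.18, that of the listed neighbours from 0.08 to 0.29, and the share of higher calls from 44.03% to 69.14%. Quantile normalization took GOT1 less GOT2 to 0.12, GLUL less GLUD1 to 0.30 and ASNS less GLUL to -0.26. The causes were not tested.

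When 1 library was left out, the remaining library of a genotype is assumed to vary like the other genotype, with 1 residual degree of freedom. No gene was called by limma then (0 genes, 0 neighbours and 0 of the 7 enzymes in each case), while 5257 to 5600 had an unadjusted p under 0.05. The differences ranged from 0.62 to 0.76 for GPT2, 0.42 to 0.51 for GOT2, 0.39 to 0.49 for GOT1, 0.24 to 0.30 for GLUL, -0.024 to 0.035 for GLUD1 (below 0 without control replicate 1, at -0.024, and without GNA13-deficient replicate 2, at -0.016), -0.15 to -0.05 for ASNS and -0.14 to -0.04 for GFPT1. The median of the listed neighbours ranged from 0.03 to 0.10, GOT1 less GOT2 from -0.05 to 0, GLUL less GLUD1 from 0.26 to 0.27 and ASNS less GLUL from -0.39 to -0.34.

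The labels number the replicates alike in both genotypes without saying that a number marks a shared culture or day. Deviations from the genotype mean correlated by 0.453 between libraries of the same number over 8473 genes, which are no independent replicates, and only 2 pairs exist. Adding the replicate block called 6616 genes, 26 listed neighbours and the same 4 enzymes. The alternatives were also run for 35 other genes, and over those that kept all libraries 31 values lost their call, 7 gained one, 5 turned sign and 301 did none of these. The signs that turned were of uncalled values, for GLS2 (0.30) and ALDH18A1 (-0.065) after quantile normalization and for GLS2 (0.039), MDH2 (0.083) and MME (0.19) after median centring. With 1 library left out GLS2 ranged from -0.62 to 0.28, BCAT2 from -0.014 to 0.20 and MME from -0.059 to 0.015. Counting error, at most 0.04 on the log2 scale, was below the standard errors of the 7 differences, so depth was not the main limit for them.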
